A study of Mus musculus with 20 samples.

Results

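The genes described here are 9 dendritic cell genes, chosen by name: Xcr1, Clec9a and Batf3 of the type 1 conventional lineage (cDC1), Cd209a, which is used as a marker of the type 2 lineage (cDC2) and of monocyte-derived dendritic cells, Flt3 and Zbtb46, which both conventional lineages share, and Ccr7, Ccl22 and Fscn1 of the mature state. They are 9 of 50573 named genes in each of 2 expression tables, of macrophages and of eosinophils, and all 9 had reads in the macrophage table. Dendritic cells are antigen-presenting cells that take up material in tissues and carry it to lymph nodes, where they activate T cells. Conventional dendritic cells fall into the cDC1 lineage, which cross-presents antigen to cytotoxic T cells, and the cDC2 lineage, which mainly primes helper T cells. Both lineages depend on the cytokine receptor Flt3, and cells of either lineage that mature switch on the chemokine receptor Ccr7, the chemokine Ccl22 and the actin-bundling protein fascin, encoded by Fscn1. Macrophages and conventional dendritic cells share surface markers, and the sources used here do not give the markers of the sort.

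The libraries were made from cells of C57BL/6 mouse colon, freed enzymatically and sorted by flow cytometry. There were 6 libraries of macrophages from colonic tumors and 5 of macrophages from naive colon, and 7 libraries of eosinophils from tumors and 2 of eosinophils from naive colon. The tumors had been induced (CAC in the labels), and the labels name no transgene or knockout. RNA was read by CEL-Seq, which counts transcripts at their 3′ end. The labels do not say that libraries of a group came from separate mice, so the p-values measure the spread between these libraries, which may in part be technical.

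Depth, recovered from the deposited values, was 2287680 to 7630724 reads per library in tumor macrophages and 1476106 to 7938365 in naive macrophages, and 1976250 to 8513797 in tumor eosinophils and 4447568 to 7459834 in naive eosinophils. A list of 16 macrophage markers summed to 23219 to 34891 CPM (reads of a gene per 1000000 reads of the library) in tumor macrophages, 20247 to 27797 in naive macrophages, 1024 to 1736 in tumor eosinophils and 822 to 971 in naive eosinophils. Both macrophage groups thus carried the labelled cell type's markers, and the 9 dendritic cell genes summed to 240 to 532 CPM in tumor macrophages and 200 to 571 CPM in naive macrophages. Reads of B and plasma cell genes were a larger share, with the list of 18 such genes at 9489 to 73438 CPM in tumor macrophages and 18468 to 76546 CPM in naive macrophages. In the text that follows, a value is a normalised read count, the authors' reads per gene divided by a size factor of the library, unless CPM is named. A gene is called when its adjusted p from limma is under 0.05, and log2 changes refer to log2(value + 1), a scale on which genes with few reads show less than their full change.

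The promoter windows of 3 of the genes are shown because these genes are the ends of the pattern below: Cd209a differed most between tumor and naive macrophages, Fscn1 least, and Ccl22 was called for a difference between the tumor effects in macrophages and eosinophils. Each window runs from 250 bases before to 50 bases after the annotated start in RefSeq (GRCm38.p6), 5′ to 3′ along the gene's strand: Cd209a at chr8:3748935-3749234 on the minus strand, Ccl22 at chr8:94745434-94745733 on the plus strand and Fscn1 at chr5:142960105-142960404 on the plus strand. Capitals mark matches, on either strand, to the kappa B letters (GGG, any 5 bases, CC) in Ccl22 and Fscn1 and to a composite of PU.1 and IRF sites (GGAA, any 2 bases, GAAA) in Cd209a.
Cd209a: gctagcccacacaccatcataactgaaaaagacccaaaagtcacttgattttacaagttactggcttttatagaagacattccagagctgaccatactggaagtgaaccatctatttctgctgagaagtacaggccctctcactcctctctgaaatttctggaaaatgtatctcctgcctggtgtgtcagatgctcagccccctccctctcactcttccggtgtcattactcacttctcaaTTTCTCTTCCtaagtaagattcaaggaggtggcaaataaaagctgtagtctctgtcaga
Ccl22: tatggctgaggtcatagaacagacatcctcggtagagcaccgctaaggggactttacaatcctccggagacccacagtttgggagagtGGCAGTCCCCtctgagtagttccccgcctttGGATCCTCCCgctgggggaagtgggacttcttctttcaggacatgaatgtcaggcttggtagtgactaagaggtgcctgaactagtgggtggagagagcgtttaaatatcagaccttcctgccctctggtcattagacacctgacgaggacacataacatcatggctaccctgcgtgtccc
Fscn1: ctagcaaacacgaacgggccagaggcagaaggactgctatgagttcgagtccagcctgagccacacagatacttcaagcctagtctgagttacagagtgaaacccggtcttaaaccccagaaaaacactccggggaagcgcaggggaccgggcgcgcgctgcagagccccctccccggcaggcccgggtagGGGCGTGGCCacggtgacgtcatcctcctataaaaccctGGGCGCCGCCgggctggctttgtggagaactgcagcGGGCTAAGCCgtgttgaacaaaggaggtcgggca
The table held a window for 8 of the 9 genes, all but Ccr7. Matches to the kappa B letters, the motif of NF-kappa B, were present in 3 of the 8 (Batf3, Ccl22 and Fscn1), against 50.8% of 32851 mouse promoter windows of this length. The motif TGANTCA, bound by AP-1 and BATF factors, was present in Zbtb46 of the 8, against 7.81% of all windows. The match lies 61 bases before the RefSeq start used for that window, an internal start of Zbtb46 as the gene is placed here (its window is chr2:181424339-181424638, minus strand). The starts used for Batf3, Ccl22 and, by a few bases, Fscn1 also lie inside the genes as placed here. The composite letters were present in Cd209a of the 8, against 2.72% of all windows. No match was present in the windows of Xcr1, Clec9a and Flt3, which says only that these letters are absent there.

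In macrophages, the 3 genes of the cDC1 lineage, Cd209a and Flt3 were lower in tumors, and the genes of the mature state did not pass the test. Of the 9 genes, 5 were called lower in tumor than in naive macrophages (Cd209a, Xcr1, Clec9a, Batf3 and Flt3) and 0 were called higher. Without Cd209a, whose direction the filter on low values fixed, this is 4 of 8. Over all 11520 genes tested, 17.1% were called, 8.59% lower and 8.5% higher. The median log2 change of the 9 genes was −1.28, against 0.03 over all genes tested. At an unadjusted p under 0.05, 1 gene, Ccr7, was higher and 7 were lower, and edgeR, DESeq2 and limma-voom on recovered reads also called 0 higher. In bulk RNA, fewer dendritic cells in a sort and less of a transcript per dendritic cell cannot be told apart.

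**Figure D1:**
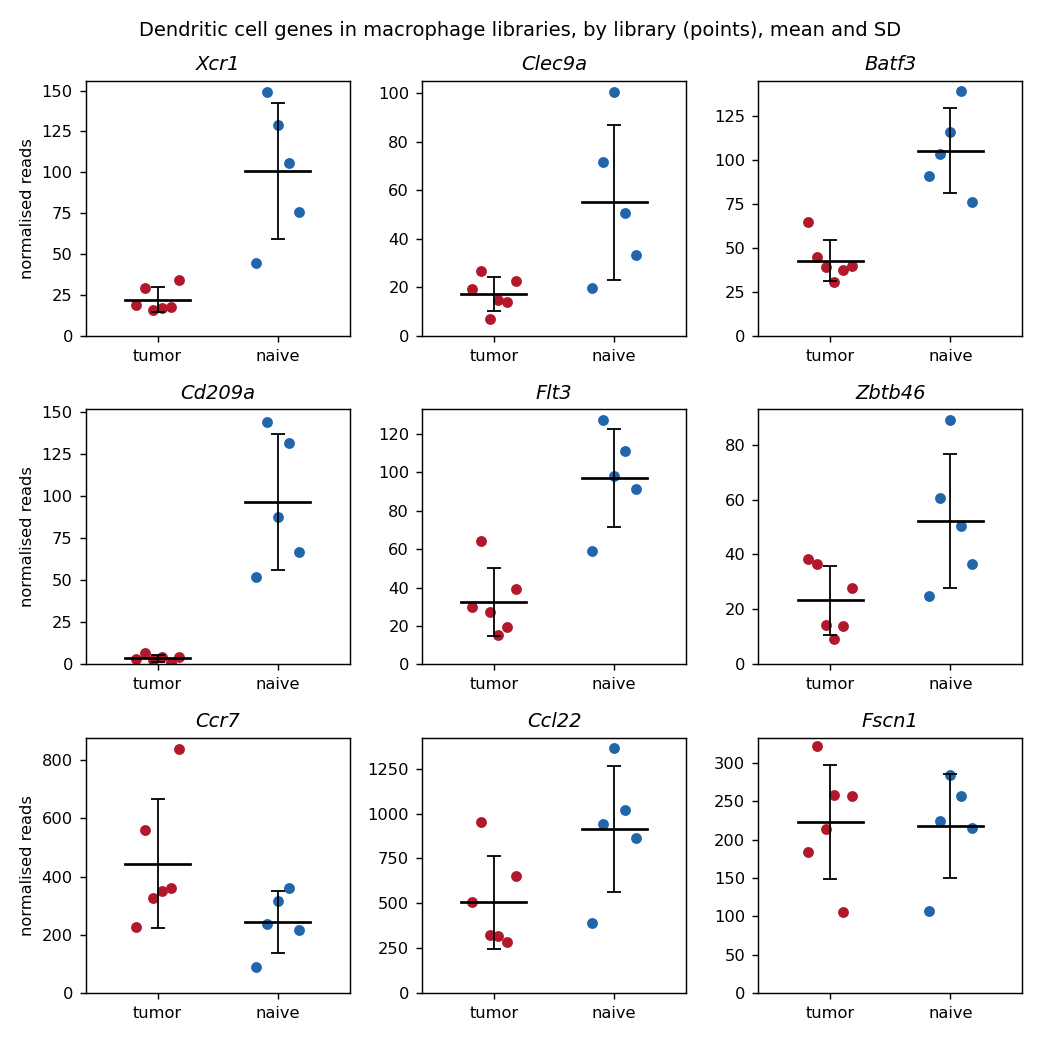
Normalised read counts of the 9 dendritic cell genes in each macrophage library (points), tumor left and naive right, with the group mean (line) and SD (bar). Cd209a, Xcr1 and Batf3 have no overlap between groups, while Fscn1 overlaps throughout.

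Cd209a, on chromosome 8 (chr8:3743397-3748984, minus strand, GRCm38), encodes a C-type lectin, a mouse relative of human DC-SIGN. It had a lowest value of 0.63, a median of 3.84 and a highest value of 6.91 in the 6 tumor macrophage libraries, against 51.7, 144, 87.5, 132 and 66.8 in the 5 naive macrophage libraries. All tumor libraries lay far below all naive libraries, and the values rest on 37 reads in the tumor group and 678 in the naive group. The log2 change was −4.40 ± 0.40 (SE; 95% interval −5.24 to −3.55; adjusted p = 3.77e-06). Cd209a passed the filter on low values, 10 in at least 5 libraries, only through its naive libraries, and a gene that passes in this way had to differ.

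The other Cd209 genes of the same cluster were also near 0 in tumor macrophages, and the 5 tested ones passed the filter in the same way. Cd209f averaged 0.848 in tumor and 65.9 in naive macrophages (log2 change −5.28, adjusted p = 4.58e-06), and Cd209b averaged 0.347 in tumor and 30.3 in naive macrophages (−4.41, adjusted p = 1.87e-05). Cd209g (−4.49), Cd209d (−3.32) and Cd209c (−2.82) were also called lower, and Cd209e, at 1.02 in tumor and 21.7 in naive macrophages, was not tested. The last 500 bases of the Cd209a transcripts shared 0% of their 30-base words with those of each of the other genes, so the 3′ reads of Cd209a are not shared with them by this measure. These relatives are not confined to dendritic cells: Cd209b is known from marginal zone macrophages. The macrophage scavenger receptor Cd163 fell by 6.01 and F13a1, the A subunit of coagulation factor XIII and a gene of resident macrophages and monocytes, fell by 3.20 on the log2 scale in the same comparison. Which cells carried Cd209a in naive colon was not tested.

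Xcr1, the receptor for the chemokine Xcl1 and a defining surface protein of cDC1, lies at chr9:123852315-123862029 on the minus strand. It had a lowest value of 15.8, a median of 18.4 and a highest value of 34.5 in tumor macrophages, against 44.6, 149, 129, 106 and 75.9 in naive macrophages. The groups did not overlap, and the log2 change was −2.08 ± 0.30 (95% interval −2.72 to −1.43; adjusted p = 0.000233).

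Batf3, the transcription factor required for cDC1 development, lies at chr1:191097847-191108945 on the plus strand. It had a lowest value of 30.5, a median of 39.4 and a highest value of 64.7 in tumor macrophages, against 90.9, 103, 116, 139 and 75.9 in naive macrophages. The groups did not overlap here either, and the log2 change was −1.28 ± 0.21 (95% interval −1.73 to −0.84; adjusted p = 0.000531). Tumor values lay below all naive values for 3 of the 9 genes (Cd209a, Xcr1 and Batf3), against 5.47% of all genes tested, and above them for 0, against 5.19%. The filter fixed the direction for Cd209a, so only the other 2 can be read against these shares.

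Clec9a encodes a lectin by which cDC1 bind actin of dead cells, and lies at chr6:129408862-129424763 on the plus strand. Its lowest, median and highest values were 7.16, 17.0 and 26.9 in tumor macrophages, against 19.6, 71.5, 100.4, 50.7 and 33.4 in naive macrophages. The groups overlapped through naive library 1, and the log2 change was −1.50 ± 0.40 (95% interval −2.35 to −0.66; adjusted p = 0.0166). The call was lost without naive library 3, at an adjusted p of 0.0501. Clec9a overlaps Clec1b, which lies on the same strand, so reads of the 2 genes may not be fully separated. Clec1b changed by 0.08 on the log2 scale (adjusted p = 0.932).

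Flt3, the receptor for the cytokine Flt3l, which drives dendritic cell development, lies at chr5:147330741-147400489 on the minus strand. Its lowest, median and highest values were 15.2, 28.5 and 64.3 in tumor macrophages, against 58.9, 127, 97.8, 111 and 91.1 in naive macrophages. Only tumor library 2 reached the naive range, and the log2 change was −1.66 ± 0.31 (95% interval −2.33 to −0.99; adjusted p = 0.00183). A predicted gene, Gm26597, lies opposite Flt3 on the plus strand, and the sources used here do not say whether counting used the strand. The ligand gene Flt3l changed by −0.70 in macrophages (adjusted p = 0.14), which did not pass.

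Zbtb46, a transcription factor of conventional dendritic cells and their committed precursors, lies at chr2:181387762-181459426 on the minus strand. Its lowest, median and highest values were 9.41, 21.0 and 38.5 in tumor macrophages, against 24.96, 60.7, 88.8, 50.2 and 36.4 in naive macrophages. The groups overlapped, and the log2 change of −1.18 ± 0.39 (95% interval −2.01 to −0.35) narrowly missed the threshold at an adjusted p of 0.0503. It passed with edgeR (−1.27, adjusted p = 0.032), DESeq2 (0.0152), limma-voom (−1.54, 0.00983) and a pseudocount of 5 (0.0466). It also passed without naive library 1 (0.0219), tumor library 1 (0.0286) or tumor library 2 (0.0321).

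The 3 genes of the mature state were called in neither direction. Ccr7, the receptor that guides mature dendritic cells to lymph nodes and is also made by T and B cells, lies at chr11:99144196-99155077 on the minus strand. Its lowest, median and highest values were 226, 356 and 839 in tumor macrophages, against 87.4, 237, 315, 362 and 215 in naive macrophages. The groups overlapped, and the log2 change of 0.88 ± 0.35 (95% interval 0.12 to 1.63) did not pass (adjusted p = 0.106). Left-out libraries moved this adjusted p between 0.0547 and 0.234, none of which passed, and without naive library 1 the change was 0.55.

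Ccl22, a chemokine of mature dendritic cells and of macrophages that attracts Ccr4+ T cells, lies at chr8:94745590-94751699 on the plus strand. Its lowest, median and highest values were 283, 413 and 953 in tumor macrophages, against 387, 941, 1365, 1021 and 862 in naive macrophages. The groups overlapped, and the log2 change of −0.89 ± 0.34 (95% interval −1.61 to −0.18) did not pass (adjusted p = 0.0845). It passed with DESeq2 (adjusted p = 0.0499), without naive library 1 (−1.18, 0.0138) and without tumor library 2 (−1.11, 0.0231). Its neighbour Ccl17 (chr8:94810453-94812036, plus strand), which encodes the other Ccr4 ligand, was called lower, by −1.20 ± 0.26 (adjusted p = 0.00477).

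Fscn1, which gives mature dendritic cells their long processes, lies at chr5:142960343-142973185 on the plus strand. Its lowest, median and highest values were 106, 236 and 322 in tumor macrophages, against 107, 224, 284, 257 and 215 in naive macrophages. The ranges lay almost on top of each other. The log2 change was 0.03 ± 0.28, with a 95% interval from −0.56 to 0.63 (adjusted p = 0.952), so changes of up to about these sizes in either direction are within the error.

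**Figure D2:**
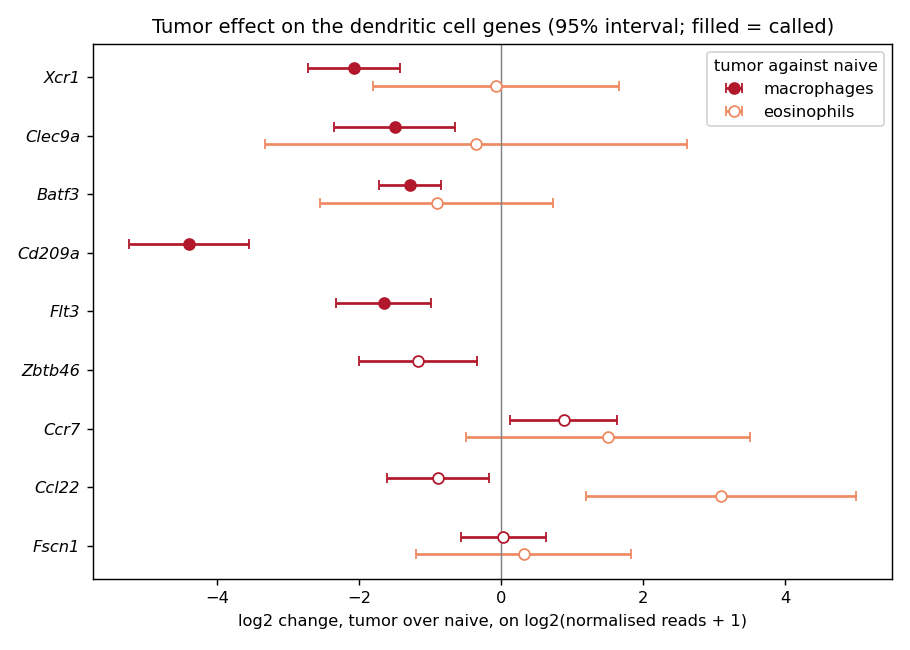
Log2 change of the 9 genes between tumor and naive colon (tumor over naive), with 95% intervals from limma, in macrophages and in eosinophils. In macrophages Cd209a stands farthest from 0 at −4.40, and the intervals of Cd209a, Xcr1, Clec9a, Batf3, Flt3, Zbtb46 and Ccl22 lie below 0 while that of Ccr7 lies above 0.

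Ratios within a library show how the genes moved relative to each other, without any scaling between libraries. They were chosen after the values had been seen, with Zbtb46 as the shared denominator because both conventional lineages use it. Per Zbtb46 read, tumor macrophages had a median of 24.5 Ccr7 reads (5.86 to 37.1), against 3.91 (3.50 to 7.21) in naive macrophages. Per Zbtb46 read, Fscn1 had a median of 9.04 reads (4.77 to 27.5) in tumor macrophages and 4.29 (3.20 to 5.92) in naive macrophages. For both genes, 6 of 6 tumor libraries lay above the naive median, and a two-sided exact permutation test of the mean log2 ratio gave p = 0.013 (0.026 after Benjamini-Hochberg adjustment over 8 ratios). The smallest p the design allows is 0.0043. On the log2 scale Ccr7 itself changed by 0.88, Fscn1 by 0.03 and the denominator Zbtb46 by −1.18, none of them called. The higher Fscn1 ratio thus stood beside a change of Fscn1 near 0, with a 95% interval from −0.56 to 0.63. The part of each gene in this ratio was not tested.

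Cd209a went the other way, with 0.169 reads per Zbtb46 read in tumor macrophages (0.0455 to 0.476) and 2.07 in naive macrophages (0.986 to 2.63), without overlap (exact permutation p = 0.0043, the smallest the design allows; adjusted 0.026). Cd209a had passed the filter on low values only through naive libraries, so its direction was fixed and this p adds no support. Xcr1 had 1.17 in tumor and 2.08 in naive macrophages (exact permutation p = 0.013, adjusted 0.026). The ratios of Clec9a (log2 difference −0.34), Batf3 (−0.08), Flt3 (−0.47) and Ccl22 (0.33) did not pass, with exact permutation p-values of 0.29, 0.792, 0.126 and 0.208. The 8 ratios share their denominator, which itself had 201 reads in the tumor group and 320 in the naive group, so they are not independent of each other.

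**Figure D3:**
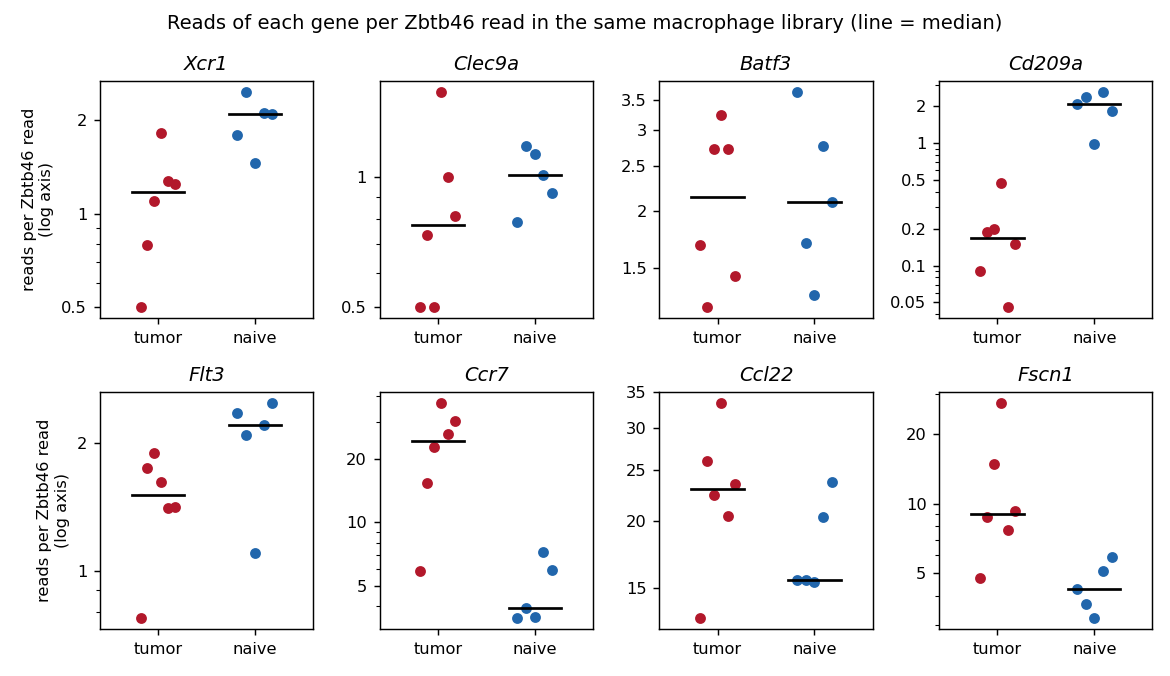
Reads of each gene per Zbtb46 read (log axis) in the macrophage libraries, tumor left and naive right. All 6 tumor libraries lie above the naive median for Ccr7 and Fscn1 and below it for Cd209a, Xcr1 and Flt3.

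Other genes of the same lineages were read from lists taken from textbook roles. Of 17 further cDC1 genes tested, 10 were called lower in tumor macrophages and 1 higher, against 8.59% and 8.5% of all genes tested, with a median log2 change of −0.85. The lower genes included Itgae, the integrin CD103 (−2.01, adjusted p = 0.00498), Wdfy4, needed for cross-presentation (−1.61, adjusted p = 0.00332), Tlr11, a receptor for profilin of parasites (−3.09, adjusted p = 0.00278), and Naaa, an acid amidase (−0.90, adjusted p = 0.000731). The change of Tlr11 varied from −3.80 to −2.13 over the alternative fits to all libraries. Tlr11 may have passed the filter on low values only through naive libraries, which would fix its direction. The gene called higher was Id2, a transcriptional regulator also made by other cells (0.52, adjusted p = 0.0228), and 0 genes of the list were called higher without naive library 1 or 2 or tumor library 5 or 6. Irf8, the lineage's main transcription factor and also a macrophage and B cell gene, changed by −0.28 (adjusted p = 0.289).

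Of 15 further cDC2 genes tested, 9 were called lower and 0 higher, against 8.59% and 8.5% of all genes tested, with a median of −0.87. They included Irf4, a transcription factor of cDC2 (−1.24, adjusted p = 0.00824), Klf4 (−1.18, adjusted p = 0.00114), and the lectins Clec10a (−1.08, adjusted p = 0.0172) and Mgl2 (−1.60, adjusted p = 1.88e-05). Mgl2 and Clec10a are also genes of tissue macrophages. Cd209d is another of the 9 lower genes. It was at most 2.76 in tumor and at least 12.1 in naive macrophages. It passed the filter only through naive libraries, so its direction was fixed. Of 17 further genes shared by conventional dendritic cells, 6 were called lower and 2 higher, with a median of −0.33. Over all genes tested the shares were 8.59% and 8.5%, so the count called higher was near its share. Cbfa2t3 (−2.31, adjusted p = 9.03e-05), Adam19 (−1.91, adjusted p = 9.2e-05) and Kmo (−1.24, adjusted p = 0.0011) were among the lower ones. Dpp4, H2-Oa and Slamf7 were the other lower ones, and each lost its call in at least 6 of the fits that left out 1 of the 11 libraries. Ass1, an enzyme of arginine synthesis (2.98, adjusted p = 9.16e-07), and Nr4a3 (0.99, adjusted p = 0.00646) were higher, and Itgax, encoding CD11c, changed by 0.20 (adjusted p = 0.306).

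The list of the mature state was divided. Of 27 further genes tested, 10 were called higher in tumor macrophages and 4 lower, against 8.5% and 8.59% of all genes tested, with a median of 0.56. The higher genes included the co-stimulatory receptor gene Tnfrsf9 (3.53, adjusted p = 5.85e-06), Socs2 (1.02, adjusted p = 0.00065), Pdcd1lg2, encoding the checkpoint ligand PD-L2 (1.47, adjusted p = 0.00629), and Samsn1 (0.98, adjusted p = 0.00782). The lower genes were Ccl17, Apol7c (−2.39, adjusted p = 0.000186), Icosl (−1.07, adjusted p = 0.00041) and Cd83 (−0.73, adjusted p = 0.00175). Relb (−0.01, adjusted p = 0.98) and Il12b (0.95, adjusted p = 0.102) did not pass. Activated macrophages make many genes of this list as well.

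Plasmacytoid dendritic cell genes had 3 of 12 tested called lower and 0 higher, against 8.59% lower and 8.5% higher over all genes tested, at a median of −0.20: Siglech (−1.85, adjusted p = 0.000109), Klk1 (−2.33, adjusted p = 0.00105) and Tcf4 (−0.38, adjusted p = 0.0318), whose call was lost in 6 of the 11 fits that left out 1 library. Among ligands and receptors of the 9 genes, 1 of 6 tested was called, a share near the 17.1% over all genes tested. It was the cytokine receptor subunit Csf2rb (0.66, adjusted p = 0.0273), which lost its call in 4 of those fits. Xcl1 and Ccr4 had too few reads to be tested.

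**Figure D4:**
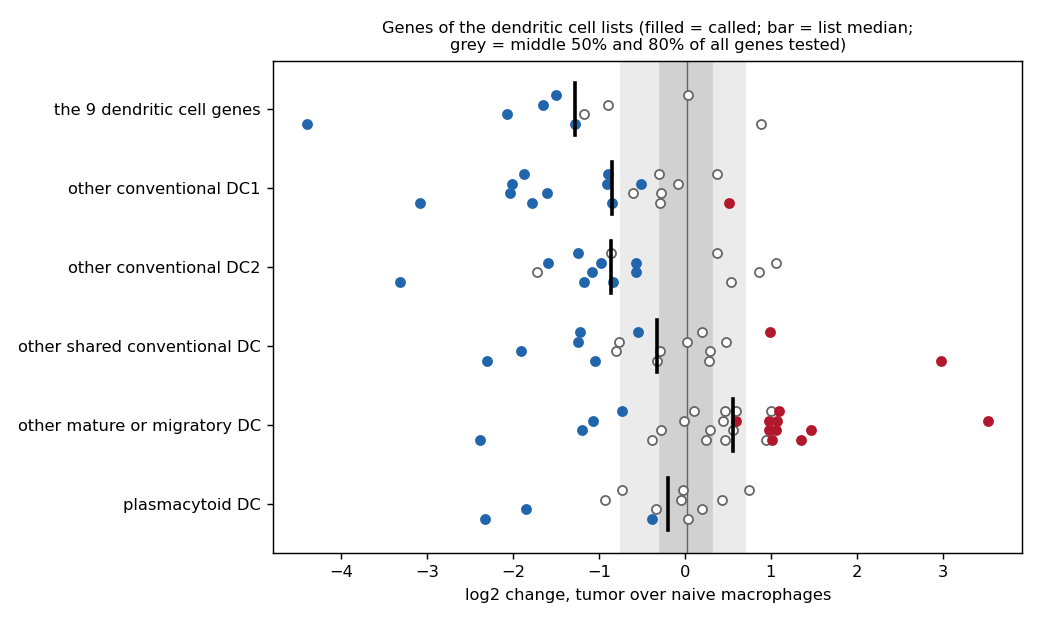
Log2 change between tumor and naive macrophages (tumor over naive) of each tested gene in the dendritic cell lists, with the median of each list marked. The medians of the further cDC1 and cDC2 genes lie at −0.85 and −0.87, and that of the mature list at 0.56.

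Genes of other cell types varied between the same libraries. The B and plasma cell list summed to 73438 CPM in tumor library 2 and 27371 CPM in tumor library 6, which had the highest Ccr7 values (562 and 839), and to 50587 CPM in tumor library 1, which had the lowest Ccr7 value (226). Of the 18 B and plasma cell genes, 1 was called higher in tumor macrophages (Sdc1, 1.19) and 0 lower, against 8.5% and 8.59% of all genes tested. The T cell receptor subunit Cd3e was at 0.131 to 1.02 CPM in tumor and 0 to 3.28 CPM in naive macrophages. The T and NK cell list summed to 188 to 290 CPM in tumor and 497 to 626 CPM in naive macrophages. Its only called gene of 8 tested, against 17.1% of all genes tested, was Cd4 (−2.12), which gut macrophages also make. The part of B cells in the Ccr7 values was not tested.

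Between libraries of a group, the 9 genes varied in the same direction. Naive library 1, with 2441510 reads, was the lowest of its group in 8 of the 9 genes, and tumor library 2 was the highest of its group in 5. Naive library 1 also had the highest sum of a list of 14 epithelial genes, 3864 CPM against 580 to 1730 CPM in the other naive libraries, and the highest share of mitochondrial reads, 15.9% against 8.29 to 13.3%. The part of these in its low values was not tested. Naive library 5 had fewer reads (1476106) and was the lowest of its group in 1 gene. Pearson's r between the within-group deviations of 2 genes over the 11 macrophage libraries ran from 0.11 (Batf3 and Ccr7) to 0.89 (Xcr1 and Clec9a), with a median of 0.67 over 36 pairs. Without naive library 1 the median was 0.50, and r ran from −0.03 to 0.86. These values describe 11 libraries that also share depth and makeup, and they carry no test.

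Over 10617 genes, those whose within-group deviations were most like each of the 9 were ranked by Pearson's r, again over 11 libraries and without a test. Zbtb46 was closest to Map4k1 (r = 0.96), Tbc1d10c (0.96) and Trak2 (0.95), and Flt3 to Siglecg (0.91), Map4k1 (0.91) and Chst3 (0.88). Ccl22 was closest to Chst3 (0.95), Fcmr (0.95) and Siglecg (0.95), and Ccr7 to H2-Q7 (0.94), Traf1 (0.94) and Gtf2f1 (0.92). Clec9a was closest to Ndfip1 (0.96), Mapre1 (0.91) and H2afy (0.91), Xcr1 to Mical1 (0.93), Gpnmb (0.90) and Edem2 (0.90), and Batf3 to Pla2g6 (0.92), Dnajc15 (0.91) and Zfp263 (0.90). Cd209a was closest to Ubr4 (0.90), Arsb (0.88) and Fscn1 (0.86), and Fscn1 to Cebpz (0.95), Sf3b1 (0.89) and Gpm6b (0.89). Siglecg and Fcmr are known from B cells.

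In eosinophils the genes were low, and none was called between tumor and naive colon. Cd209a had 1 read in the 7 tumor eosinophil libraries together and 0 in the 2 naive ones. Flt3 reached at most 3.43 in tumor and 2.42 in naive eosinophils, and Zbtb46 at most 20.1 in tumor and 2.90 in naive eosinophils, so these 3 genes did not pass the filter of 10 in at least 2 libraries. Of the 6 genes tested, limma called 0, against 4.61% of 12967 genes tested (2.42% higher and 2.19% lower), and 1 gene, Ccl22, had an unadjusted p under 0.05. Ccl22 was also the 1 gene that DESeq2 called, and edgeR and limma-voom called 0.

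Ccl22 had a lowest value of 4.29, a median of 17.0 and a highest value of 51.1 in tumor eosinophils, against 0 and 3.62 in naive eosinophils. All tumor values lay above both naive values, and the log2 change was 3.10 ± 0.88 (95% interval 1.20 to 5.002; adjusted p = 0.0656). Ccl22 passed the filter on low values only through tumor libraries, which favoured higher tumor values, so the lack of overlap adds no support. Without tumor library 4 the adjusted p was 0.0417. The naive value rests on 3 reads, and the ratio of pooled CPM, 5.48 in tumor over 0.252 in naive eosinophils, was 21.7 with an exact 95% interval from 7.34 to 106, which covers counting error only.

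Xcr1 was the gene of the cDC1 lineage with the most reads in eosinophils, with a lowest value of 8.18, a median of 10.8 and a highest value of 62.4 in tumor eosinophils, against 13.3 and 30.2 in naive eosinophils. Tumor libraries 3, 5 and 6 were high (44.8, 38.6 and 62.4) and the other 4 were between 8.18 and 10.8. Its log2 change was −0.08 (95% interval −1.81 to 1.66; adjusted p = 0.97). Ccr7 changed by 1.505 (adjusted p = 0.406), Batf3 by −0.91 (0.547), Clec9a by −0.36 (0.918) and Fscn1 by 0.32 (0.845). With 2 naive libraries these intervals are wide, and that of Clec9a ran from −3.33 to 2.62. Ccr7 and Clec9a passed the filter only through tumor libraries, as Ccl22 did. Among the list genes in eosinophils, Flt3l fell by 1.39 (adjusted p = 0.0476), the 1 gene called of 6 ligands and receptors tested. Pdcd1lg2 rose by 2.74 (adjusted p = 0.0288), in a mature list with 3 of 26 called higher and 1 lower. Calls higher and lower were 0 and 2 of 13 further cDC1 genes, and 0 and 1 of 12 cDC2 genes. They were 2 and 2 of 15 shared genes, and 1 and 1 of 12 plasmacytoid genes. Over all genes tested the shares were 2.42% and 2.19%. The macrophage list summed to 1024 to 1736 CPM in tumor eosinophils and 822 to 971 CPM in naive eosinophils. Of its 13 tested genes, 5 were called higher and 1 lower, against 2.42% and 2.19% of all genes tested. The part of this list in these values was not tested.

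Set across the cell types after joint scaling of all 20 libraries, most of the 9 genes were higher in macrophages. In tumors, 8 of the 9 were called higher in macrophages than in eosinophils, against 24.2% of 14973 genes tested, and 0 were called lower, against 18.9%. In all, 43.1% of those genes were called. Flt3, Zbtb46 and Cd209a passed the joint filter, 10 in at least 2 libraries, only through macrophages, which favours a call of higher, and Cd209a was below 10 in both tumor groups. Of the 6 genes that passed through each cell type, 5 were called higher. Ccr7 averaged 502 ± 258 jointly scaled reads (SD, n = 6) in tumor macrophages and 20.7 ± 25.7 (n = 7) in tumor eosinophils, a log2 difference of 4.998 (adjusted p = 2.53e-08). Ccl22 averaged 565 ± 292 in tumor macrophages and 29.2 ± 23.1 in tumor eosinophils (4.45, adjusted p = 1.01e-07), and Flt3 36.4 ± 19.8 in tumor macrophages and 1.47 ± 1.56 in tumor eosinophils (4.004, adjusted p = 2.13e-07). The differences of Clec9a (2.48), Fscn1 (2.47), Zbtb46 (2.004) and Batf3 (1.96) were smaller, and that of Clec9a was not called by edgeR (adjusted p = 0.0512) or DESeq2 (0.06). For Cd209a, 37 reads in tumor macrophages stood against 1 in tumor eosinophils, a ratio of CPM of 40.1 (exact 95% interval 6.76 to 1626, counting error only). Xcr1 was the exception, at 24.9 ± 8.90 in tumor macrophages and 32.8 ± 26.1 in tumor eosinophils, a log2 difference of −0.04 (95% interval −0.96 to 0.88; adjusted p = 0.951).

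In naive colon, 9 of the 9 were called higher in macrophages than in eosinophils, against 15.5% of genes tested, with the same limit for Flt3, Zbtb46 and Cd209a. limma-voom called 4 of the 9 (Cd209a, Batf3, Flt3 and Ccl22). Cd209a was at least 117-fold higher in naive macrophages, with 29.5 CPM, than the 0.252 CPM that a count of 0 allows over the 2 naive eosinophil libraries (3 reads). The ratio of pooled CPM of Ccl22, 5514 reads in naive macrophages against 3 in naive eosinophils, was 951 (exact 95% interval 325 to 4615), and that of Flt3, 621 against 2 reads, was 161 (44.3 to 1330.0). Both intervals cover counting error only. Log2 differences were 5.58 for Ccr7, 4.53 for Zbtb46, 3.44 for Clec9a, 2.65 for Fscn1 and 2.21 for Batf3. Xcr1 averaged 108 ± 47.7 (n = 5) in naive macrophages and 28.1 ± 13.8 (n = 2) in naive eosinophils, a log2 difference of 1.86 (adjusted p = 0.0379; 0.0682 with no filter). The call of Xcr1 was lost without naive eosinophil library 1 or 2 or without naive macrophage library 2, 3 or 4, where the difference ranged down to 1.28 and the adjusted p up to 0.296. Clec9a also lost its call without naive eosinophil library 1 (2.52, adjusted p = 0.178), and Batf3 (1.51, 0.132) and Fscn1 (1.89, 0.097) without naive eosinophil library 2.

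**Figure D5:**
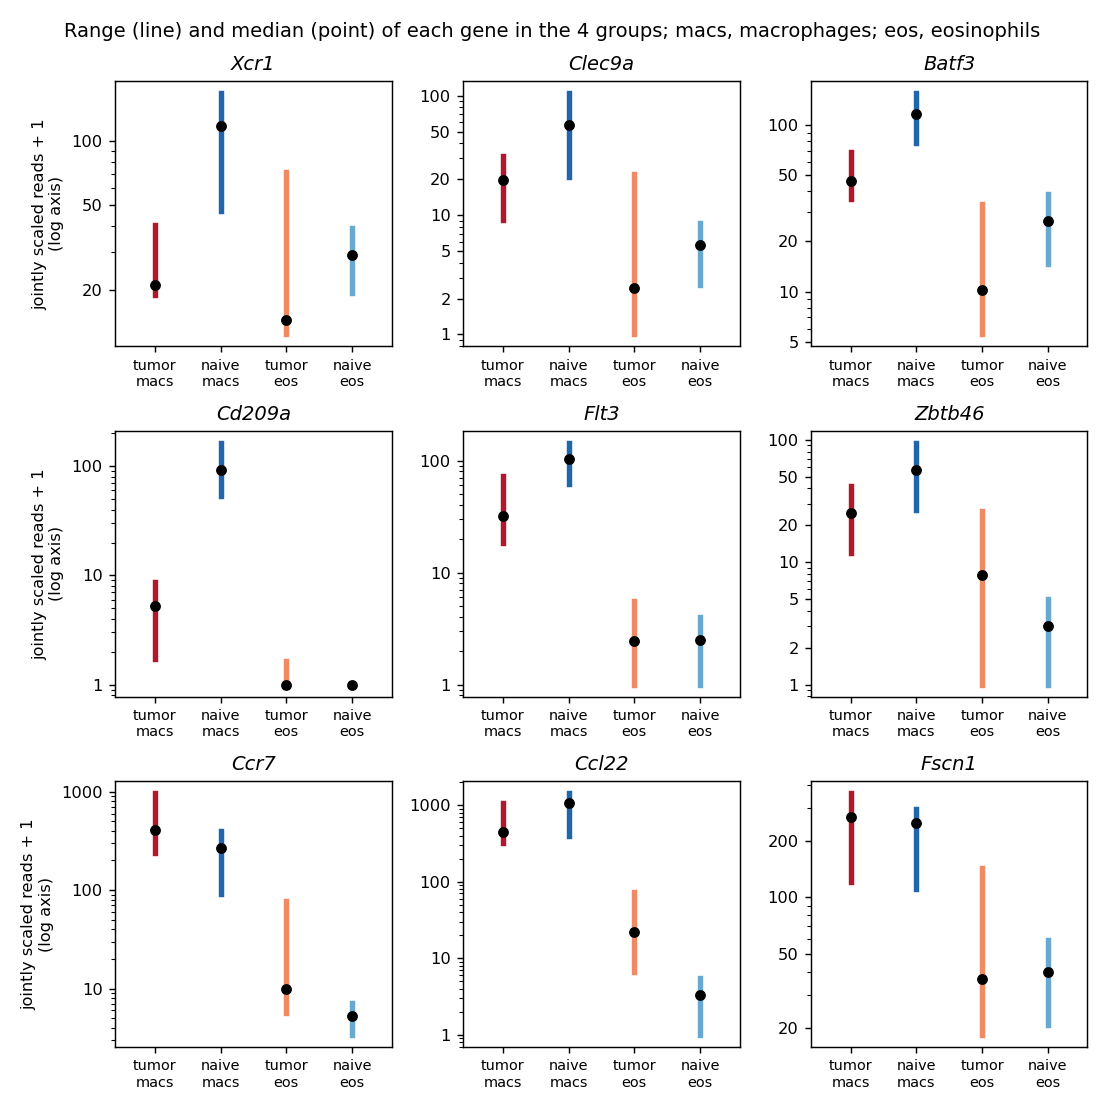
Jointly scaled reads (plus 1, log axis) of the 9 genes in tumor and naive macrophages and tumor and naive eosinophils, drawn as the range (line) and median (point) of the libraries. For Xcr1 tumor macrophages overlap both eosinophil groups, and Cd209a is at or near 0 in both eosinophil groups.

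By mean level, naive macrophages were highest for Cd209a, Xcr1, Clec9a, Batf3, Flt3, Zbtb46 and Ccl22, and tumor macrophages for Ccr7 and Fscn1. Tumor and naive macrophages held the upper places for every gene but Xcr1, and they were not called different for Zbtb46, Ccr7, Ccl22 and Fscn1. For Xcr1 the other 3 groups had no settled order: tumor eosinophils came next by mean (32.8) but last by median (13.5), against medians of 20.1 in tumor macrophages and 28.1 in naive eosinophils. The eosinophil groups were not called different for any of the 6 genes tested there. The difference between tumor effects, macrophages minus eosinophils, was called for 2 of the 9 genes, both negative, against 4.17% of 14973 genes tested, 1.87% negative and 2.3% positive. It was −4.46 for Cd209a (adjusted p = 0.00146), a call lost with edgeR (adjusted p = 0.214) and limma-voom (0.46), and −4.13 for Ccl22 (adjusted p = 0.00725). Cd209a passed the filter only through naive macrophages and had 1 read in tumor and 0 in naive eosinophils, so no tumor effect could be measured in eosinophils and its value restates the decrease in macrophages. Ccl22 had opposite signs, −0.89 in macrophages and 3.10 in eosinophils. The Ccl22 call was lost with limma-voom (adjusted p = 0.645), which called 0 of the 9, and without naive eosinophil library 1 (−2.88, adjusted p = 0.0544). Differences between the effects did not pass for Zbtb46 (−2.52, adjusted p = 0.188), Xcr1 (−1.89, adjusted p = 0.195) and Flt3 (−1.64, adjusted p = 0.278), nor for the other 4 genes.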

How the data were processed

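RNA was read by CEL-Seq, with Trizol extraction and, per the labels' protocols, 3 technical replicates per sample that used separate primer pools. The sources used here do not say how these were combined or whether counting used the strand. Per the submitters' processing notes, the tools were DESeq2 1.14.1, HTSeq 0.6.1, the aligners Bowtie2 2.2.6 and TopHat2 2.1.0, and Trim Galore and FastQC 0.11.5 for read quality, with build GRCm38.p5. The authors deposited a normalised signal of gene reads, 1 table per cell type. All non-zero values were whole reads within 0.1 read once divided by the library's step, so reads and depth were recovered. Entries named by a bare number, 27 in each of the tables and at most 0.1323% of a library's reads, were left out.

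Values were tested as log2(value + 1) with limma 3.58.1 (eBayes with trend, two-sided) in R 4.3.3, in place of the edgeR test planned for raw counts. Genes were kept at 10 or more in at least 5 macrophage or 2 eosinophil libraries, with Benjamini-Hochberg adjustment over all genes tested. Comparisons between cell types used recovered reads of all 20 libraries scaled together by TMM (edgeR 4.0.16), kept at 10 or more in at least 2 libraries, since each table was scaled on its own. Whole reads allowed edgeR, DESeq2 1.42.0 and limma-voom as alternatives, and a pseudocount of 5, another scaling, no filter, left-out libraries and a replicate block were also tried. The fits were tested on simulated data. edgeR on the recovered reads called 1944 genes in macrophages and 531 in eosinophils.

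The 9 genes, the lists, the motifs and the rule for named genes were chosen with earlier results of these data known. The rule names all 9 genes, up to 8 called genes of each list by smallest p, a few fixed regulators and ligands, and the 3 genes most like each of the 9 in within-group deviations. The ratios to Zbtb46, the other Cd209 genes and Clec1b were added after values were seen, as were Id2 and the eosinophil calls of list genes. Gene coordinates are from an annotation of GRCm38, and promoter sequences from RefSeq (GRCm38.p6). The values of 1 marker gene are not reported here.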

Additional observations from a re-analysis of the deposited data

Results flagged for a closer look

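Among 27 sets of 1 gene in 1 group with 4 to 10 libraries, 3 held a library far from the others, all in tumor eosinophils. The rule's critical values are set so that chance marks about 1 in 20 groups, a rate that does not hold for a set of zeros with 1 read. Cd209a was at 0.49 in tumor eosinophil library 2, which is 1 read, and at 0 in the other libraries of its group. Tumor eosinophil library 7 stood apart for Zbtb46, at 20.12 against at most 6.45 in the others of its group, and for Ccr7, at 61.91 against at most 16.35.

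The difference between tumor effects, macrophages minus eosinophils, passed its own test for Cd209a and Ccl22. For Cd209a the difference was −4.46 on the log2 scale (limma, adjusted p = 0.00146), but the gene passed the filter only through naive macrophages and had 1 read in tumor and 0 in naive eosinophils, so the value restates the decrease in macrophages. For Ccl22 it was −4.13 (limma, adjusted p = 0.00725).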

How the results depend on the processing

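Of the values recomputed under the alternatives, none changed sign while called. The counts of genes called that moved by over 1.5 times were as follows, and the cause was not tested. In macrophages a replicate block gave 1230 genes in place of 1968, with 5 of the 9 genes still called lower and 5 in place of 10 genes of the mature list called higher. The replicate block also called 0 in place of 1 further cDC1 gene higher. TMM scaling and DESeq2 each called 1 in place of 0 further cDC2 genes higher. In eosinophils DESeq2 gave 1383, limma-voom 197 and the replicate block 1143 in place of 598 genes, and DESeq2 and the replicate block each called 1 of the 9 genes higher (Ccl22) in place of 0. Same-numbered libraries did not deviate together in macrophages (correlations −0.311 to 0.056) and only weakly in the 2 eosinophil pairs (0.124 and 0.128). Each of the 2 naive eosinophil libraries still correlated best with the tumor library of its own number. The labels do not state that the numbers pair samples, so they are not taken as pairs. For the difference between tumor effects, no filter gave 403, DESeq2 1077 and limma-voom 132 in place of 624 genes, and edgeR called 1 and limma-voom 0 of the 9 genes lower in place of 2. Between naive macrophages and naive eosinophils limma-voom gave 2556 in place of 4518 genes and 4 in place of 9 of the genes.

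Leaving out 1 library at a time gave 1509 to 1929 genes and 4 to 7 of the 9 called lower in macrophages, and 70 (without naive library 2) to 868 genes and 0 to 1 of the 9 called higher (1 without tumor library 4) in eosinophils. It gave 5716 to 6740 genes and 8 of the 9 between tumor macrophages and tumor eosinophils, 3059 to 4876 genes and 6 to 9 of the 9 between naive macrophages and naive eosinophils, and 168 (without naive eosinophil library 2) to 1771 genes (without naive eosinophil library 1) and 1 to 2 of the 9 for the difference between effects. A lone naive eosinophil library is assumed to vary like the other groups. Median-of-ratios in place of TMM scaling moved the median log2 value of all genes from 0.06 to −0.04 between tumor macrophages and tumor eosinophils and from 0.07 to −0.06 for the difference between effects. Depth limits Cd209a most, at 1 to 10 reads per tumor macrophage library.

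The ratios to Zbtb46 were also recomputed without each macrophage library in turn, an alternative added after the data were seen. The unadjusted exact permutation p stayed at or below 0.0286 for Cd209a, Xcr1, Ccr7 and Fscn1 in all 11 cases, with the direction of Cd209a fixed by the filter. It fell to 0.0095 for Flt3 without naive library 3 and to 0.0397 for Ccl22 without tumor library 1.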
